A study of Mus musculus with 8 samples.

Results

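Messenger RNA of the LIF receptor, of the JAK/STAT proteins below it, of their Socs inhibitors and of the Pim kinases was followed through transcription arrest in mouse embryonic stem cells. The set holds 10 genes, chosen by name from results of these same arrays: Lifr, Il6st, Jak1, Stat3, Socs1, Socs2, Socs3, Pim1, Pim2 and Pim3. They are read by 15 probes of an Agilent mouse array that names 20972 gene symbols. All 15 probes were well above background on all 8 arrays, and all 10 genes passed the filter on dim probes. Because the set was picked with its response in view, its values below are a description, with no p-value and no test of the set.

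LIF is the cytokine that keeps mouse embryonic stem cells self-renewing. It binds the LIF receptor (Lifr), which pairs with gp130 (Il6st), the shared receptor chain of the interleukin-6 family. The bound JAK kinases, Jak1 chief among them in these cells, phosphorylate Stat3, which moves to the nucleus and switches on target genes. Socs3 and Socs1 are among those targets, and the proteins they encode bind the receptor or the JAK kinases and shut the signal down. Socs2 acts mainly on growth hormone signalling. Pim1, Pim2 and Pim3 encode serine/threonine kinases that are active as soon as they are made. Neither their protein nor their activity was measured here. Pim1 and Pim3 are known targets of LIF and Stat3 in mouse embryonic stem cells.

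The cells grew in medium for embryonic stem cells with LIF and, in every group, 250 nM PD173074, an inhibitor of FGF receptors. The arrays fall into 3 groups. Cells of the first (3 arrays) are untreated by their treatment label, while their titles read 0 h and add a short form of actinomycin D. The other cells received 5 µM actinomycin D, which stops RNA synthesis, and 30 min later either ethanol vehicle (2 arrays) or 250 nM 4-hydroxytamoxifen (4OHT, 3 arrays) for 4 h. No group without actinomycin D was taken at 4 h. In every difference from untreated, actinomycin D, the later addition and the added time in culture therefore cannot be told apart. The labels do not say what 4OHT acts on in these cells, nor which line they are, and give the series the subject of mRNA degradation under Erk control. The design text speaks of 3 biological replicates, and 2 vehicle arrays were used here.

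Signal was lower after actinomycin D over the whole array. The 75th percentile of the processed signal lay between 333 and 457 on the untreated arrays and between 166 and 209 on the 5 others. Values are log2 processed signal minus the array's own 75th percentile, so they show each mRNA relative to the rest. On this scale the median of all 28491 features tested was 0.40 higher with vehicle than in untreated cells. Relative to spike-in RNA it was 0.88 lower (a log2 difference of -0.88), so that a gene can be higher on the first scale and lower on the second. Differences are given on the 75th percentile scale unless the spike-in scale is named. The 4OHT arrays were all in row 1 of 1 slide. The others were on a second slide, where vehicle arrays filled row 1 and untreated arrays row 2. Slide and 4OHT therefore cannot be told apart, nor can row and actinomycin D treatment, and 4OHT differed from untreated in both slide and row. For both vehicle arrays the scanner's measure of spot-to-spot variation (9.42% and 8.20%) fell outside its accepted range. All 8 listed embryonic stem cell markers were well above background in every group, with a summed signal of 309903 to 379606 in untreated, 195513 to 247562 in vehicle and 202798 to 216271 in 4OHT samples. These sums, and those of the lists that follow, are of unscaled signal, which was lower over the whole array after actinomycin D. On the 75th percentile scale the 8 markers' median difference with vehicle was 0.15, against 0.40 for all features. It ranged from -3.63 (Fgf4) to 1.15 (Dppa5a). The summed signal of 7 fibroblast markers was 881 to 1538 in untreated, 545 to 775 in vehicle and 742 to 835 in 4OHT samples, and Col3a1 and Postn were not detected. The 5 primitive endoderm markers summed to 203 to 307, 41.6 to 52.5 and 39.5 to 51.0 in the same order, and Gata6, Sox17, Sox7 and Pdgfra were not detected in either treated group. The 5 trophoblast markers summed to 259 to 498, 69.9 to 114 and 55.2 to 143 (Cdx2 and Elf5 not detected), and 5 of mesoderm and neuroectoderm to 732 to 1008, 520 to 591 and 477 to 691 (T and Mixl1 not detected). Detected, in these lists, means well above background on every array of a group. By that rule Twist1 and Pax6 were not detected in either treated group, and Krt7 was detected in the vehicle group alone. Yet Krt7 was well above background on 2 arrays of each group. Twist1 was so on 1 vehicle and 2 4OHT arrays, and Pax6 on 1 4OHT array. The part of these other lists in the results below was not tested. In such bulk samples fewer cells of a type and less RNA per cell cannot be told apart.

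The 5′ flanks of Socs3 and Pim3, the members furthest below untreated with vehicle, are shown because both genes are known Stat3 targets. Each is the stretch of 250 bases before the annotated start on the gene's own strand, from RefSeq (GRCm38.p6), and capitals mark any match to the STAT-type motif TTCNNNGAA, which reads the same on both strands.
Socs3, chr11:117969367-117969616, minus strand: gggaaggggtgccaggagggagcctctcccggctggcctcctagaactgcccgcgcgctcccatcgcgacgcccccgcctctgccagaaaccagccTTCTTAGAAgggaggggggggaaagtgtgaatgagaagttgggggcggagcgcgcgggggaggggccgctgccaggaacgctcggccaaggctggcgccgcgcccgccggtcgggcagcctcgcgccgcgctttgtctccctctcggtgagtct
Pim3, chr15:88861944-88862193, plus strand: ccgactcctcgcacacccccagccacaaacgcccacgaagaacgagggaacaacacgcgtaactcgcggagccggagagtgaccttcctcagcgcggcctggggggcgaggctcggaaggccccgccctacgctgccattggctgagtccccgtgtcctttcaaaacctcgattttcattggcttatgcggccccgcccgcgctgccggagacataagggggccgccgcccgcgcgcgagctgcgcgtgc
The Socs3 flank held 1 match, TTCTTAGAA, whose first base lies 154 bases before the start, and these letters did not occur in the Pim3 flank. The motif was present in 7.02% of 32851 such flanks. A match is a description of the sequence and no evidence of binding.

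Pim3 was the member with the largest difference between the 2 actinomycin D groups. Its log2 values were 4.17, 4.24 and 4.13 in untreated cells, 0.00 and 0.18 with vehicle, and 2.53, 2.37 and 2.38 with 4OHT. The 3 groups occupied separate ranges, and the lowest 4OHT array lay 2.19 above the highest vehicle array. In processed signal, untreated arrays read 6002, 8659 and 7098, vehicle arrays 166 and 232, and 4OHT arrays 1202, 931 and 951. The vehicle mean was 4.09 ± 0.10 (SE) below untreated, a log2 difference of -4.09 that leaves 5.86% of the untreated relative level. With 4OHT the difference from untreated was -1.76 ± 0.09, which leaves 29.6%. The 4OHT mean was thus 2.34 ± 0.10 above vehicle, or 5.05-fold, the 13th largest rise among the 28491 features. On the spike-in scale the same differences were -5.37, -3.34 and 2.03, so Pim3 was lower than untreated in both treated groups and higher with 4OHT than with vehicle on either scale. The 4OHT and vehicle arrays lie on different slides, so in this difference slide and 4OHT cannot be told apart.

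Pim1 showed the same order of groups at smaller size. Its log2 values were 0.80, 0.81 and 0.77 in untreated cells, -0.60 and -0.52 with vehicle, and 0.12, 0.03 and 0.05 with 4OHT. No array overlapped another group. Vehicle differed from untreated by -1.35 ± 0.09, 4OHT from untreated by -0.73 ± 0.08, and 4OHT from vehicle by 0.63 ± 0.09, which is 1.55-fold. The call for 4OHT against untreated was lost with median scaling (-0.57). The difference between 4OHT and vehicle was 0.32 on the spike-in scale. It passed the threshold across all features in only 10 of 20 alternative analyses, and no longer did so without untreated replicate 3, either vehicle array, or 4OHT replicate 2 or 3 (0.59 to 0.67). Where 1 vehicle array is left out, here and below, the other is assumed to vary like the arrays of the other groups.

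Pim2 did not follow the other Pim kinases. Its log2 values were -0.83, -1.06 and -1.07 in untreated cells, -0.49 and -0.42 with vehicle, and -0.46, -0.33 and -0.66 with 4OHT. Both treated groups lay above untreated with no overlap, and they overlapped each other. The difference from untreated was 0.53 ± 0.13 with vehicle and 0.50 ± 0.12 with 4OHT, and 4OHT and vehicle differed by -0.02 ± 0.13. On the spike-in scale Pim2 was lower than untreated (-0.75 with vehicle and -1.08 with 4OHT). The call for vehicle was lost without vehicle replicate 2 (0.49), and with median scaling the calls for vehicle (0.57) and for 4OHT (0.65) were lost.

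**Figure D1:**
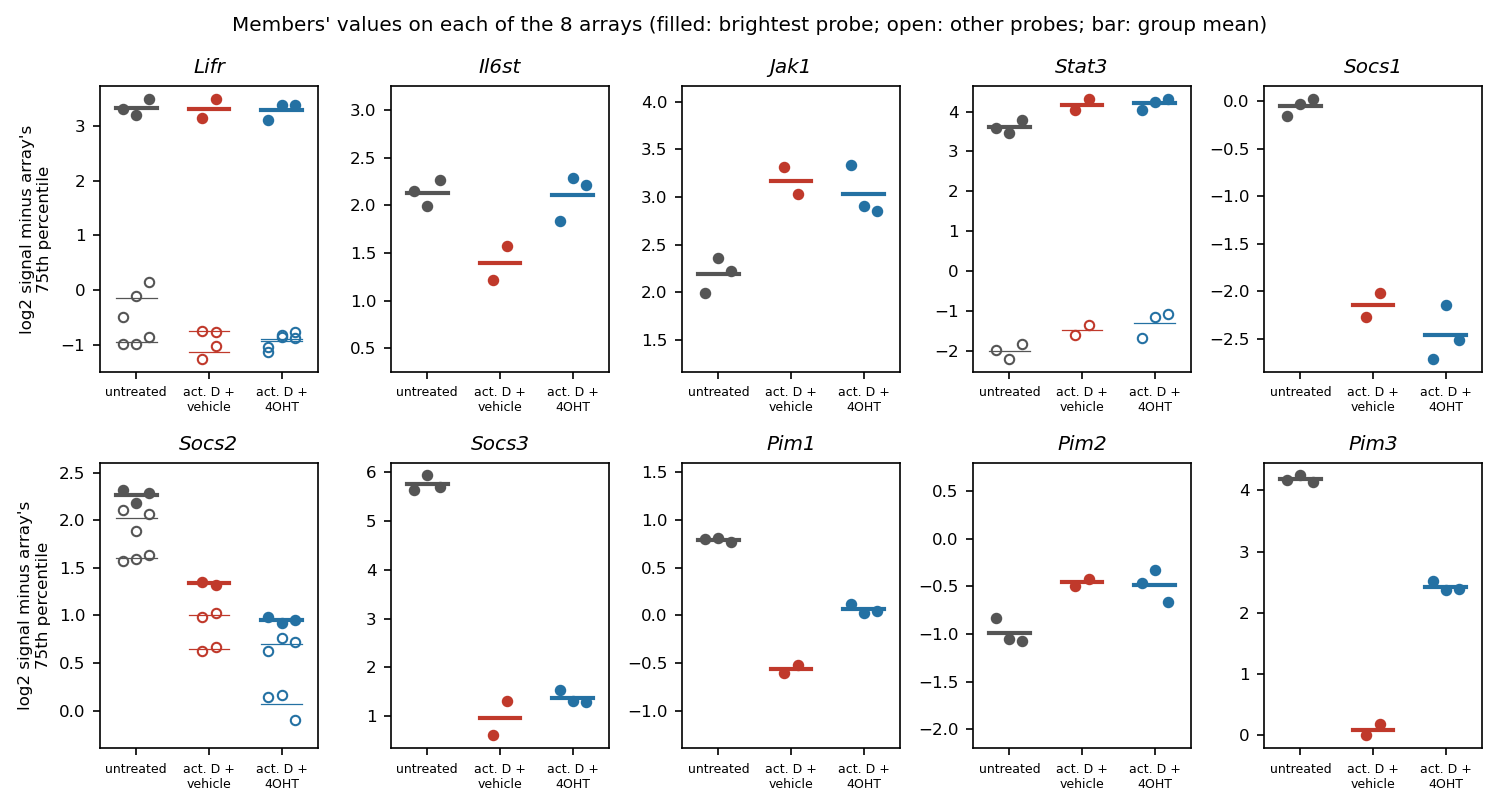
Log2 signal minus the array's 75th percentile (vertical axis, own range in each panel) for the 10 genes in the 3 untreated, 2 vehicle and 3 4OHT samples. Each point is 1 array, filled for a gene's brightest probe and open for its others, and bars are group means. Pim3 shows 3 separate groups, with 4OHT between 2.37 and 2.53 and vehicle between 0.00 and 0.18, while Socs3 was low in both treated groups.

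Among the inhibitors, Socs3 was the member with the largest loss. Its log2 values were 5.64, 5.94 and 5.71 in untreated cells, 0.60 and 1.30 with vehicle, and 1.54, 1.31 and 1.28 with 4OHT. Every treated array lay far below every untreated one, and the 4OHT arrays overlapped the vehicle arrays, which were 0.70 apart. Vehicle differed from untreated by -4.81 ± 0.21, the 31st lowest of 28491 differences, which leaves 3.56% of the untreated relative level. With 4OHT the difference was -4.39 ± 0.19, which leaves 4.78%. The difference of 0.43 ± 0.21 between 4OHT and vehicle was 0.08 without vehicle replicate 1 and 0.78 without vehicle replicate 2. It therefore rested on which vehicle array was read, and it was 0.12 on the spike-in scale.

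Socs1, which inhibits JAK kinases directly, was also low in both treated groups. Its log2 values were -0.16, -0.03 and 0.02 in untreated cells, -2.27 and -2.02 with vehicle, and -2.71, -2.15 and -2.51 with 4OHT. The treated groups overlapped each other. Vehicle differed from untreated by -2.09 ± 0.18 and 4OHT by -2.40 ± 0.16, which leaves 23.5% and 18.9% of the untreated relative level. The difference between 4OHT and vehicle was -0.31 ± 0.18.

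Socs2 was the member whose arrays were lower with 4OHT than with vehicle on every one of its probes. On its brightest probe, an average of 10 spots, the log2 values were 2.31, 2.18 and 2.29 in untreated cells, 1.35 and 1.32 with vehicle, and 0.99, 0.92 and 0.95 with 4OHT. The 3 groups did not overlap. Vehicle differed from untreated by -0.92 ± 0.09 and 4OHT from vehicle by -0.38 ± 0.09. The other 2 probes for the same transcript gave -0.30 ± 0.10 and -0.58 ± 0.11 between 4OHT and vehicle, again with no overlap. The difference did not pass the threshold across all features, except with a trended and robust variance estimate. On the spike-in scale it was -0.69. For Pim3 the same 2 groups differed in the opposite direction.

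The receptor chains differed from each other. Il6st had log2 values of 2.15, 1.99 and 2.27 in untreated cells, 1.22 and 1.58 with vehicle, and 1.83, 2.29 and 2.21 with 4OHT. The vehicle arrays lay below both other groups, which overlapped each other. Vehicle differed from untreated by -0.74 ± 0.18, 4OHT from vehicle by 0.71 ± 0.18, and 4OHT from untreated by -0.02 ± 0.16. The first of these was no longer called without vehicle replicate 1 (-0.56) or with median scaling (-0.70), and the second was not called, except with normexp background correction or a trended and robust variance estimate. On the spike-in scale Il6st was lower than untreated in both treated groups (-2.01 with vehicle and -1.60 with 4OHT).

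Lifr did not move as 1 transcript on its 3 probes. The brightest probe, listed for NM_013584, had log2 values of 3.30, 3.19 and 3.49 in untreated cells, 3.14 and 3.49 with vehicle, and 3.10, 3.38 and 3.38 with 4OHT, with every group overlapping the others. Its differences were -0.01 ± 0.16 for vehicle and -0.04 ± 0.14 for 4OHT against untreated, and -0.03 ± 0.16 between the treated groups. The probe listed for NM_001113386 read -0.49, -0.11 and 0.14 in untreated cells, -0.74 and -0.77 with vehicle, and -1.04, -0.86 and -0.87 with 4OHT. There both treated groups lay below untreated, with differences of -0.61 ± 0.18 and -0.78 ± 0.16, and the 4OHT arrays lay below the vehicle arrays (-0.17 ± 0.18). The remaining probe, again for NM_013584, gave -0.19 ± 0.14 and 0.04 ± 0.13. The probes thus disagree on whether Lifr mRNA lost ground relative to the rest, and on the spike-in scale all 3 were lower than untreated.

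The kinase and the transcription factor of the pathway were higher on the relative scale. Jak1 had log2 values of 1.99, 2.36 and 2.23 in untreated cells, 3.32 and 3.03 with vehicle, and 3.34, 2.90 and 2.85 with 4OHT. Both treated groups lay above untreated and overlapped each other. The differences from untreated were 0.98 ± 0.19 with vehicle and 0.83 ± 0.17 with 4OHT, which is 1.97-fold and 1.78-fold. Stat3 had log2 values of 3.59, 3.47 and 3.78 in untreated cells, 4.04 and 4.31 with vehicle, and 4.05, 4.25 and 4.31 with 4OHT. It too was above untreated with no overlap, by 0.56 ± 0.15 with vehicle and 0.59 ± 0.13 with 4OHT, and a second, dimmer probe gave 0.53 ± 0.21 and 0.71 ± 0.19. The Stat3 call for vehicle was lost without vehicle replicate 2 (0.43), with quantile normalization (0.18) and with median scaling (0.60), and that for 4OHT with quantile normalization (0.22). Between 4OHT and vehicle Jak1 differed by -0.14 ± 0.19 and Stat3 by 0.03 ± 0.15, and in both genes the groups overlapped. On the spike-in scale the direction against untreated flipped: Jak1 differed by -0.30 with vehicle and -0.75 with 4OHT, with overlapping arrays, and Stat3 by -0.72 and -0.99.

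**Figure D2:**
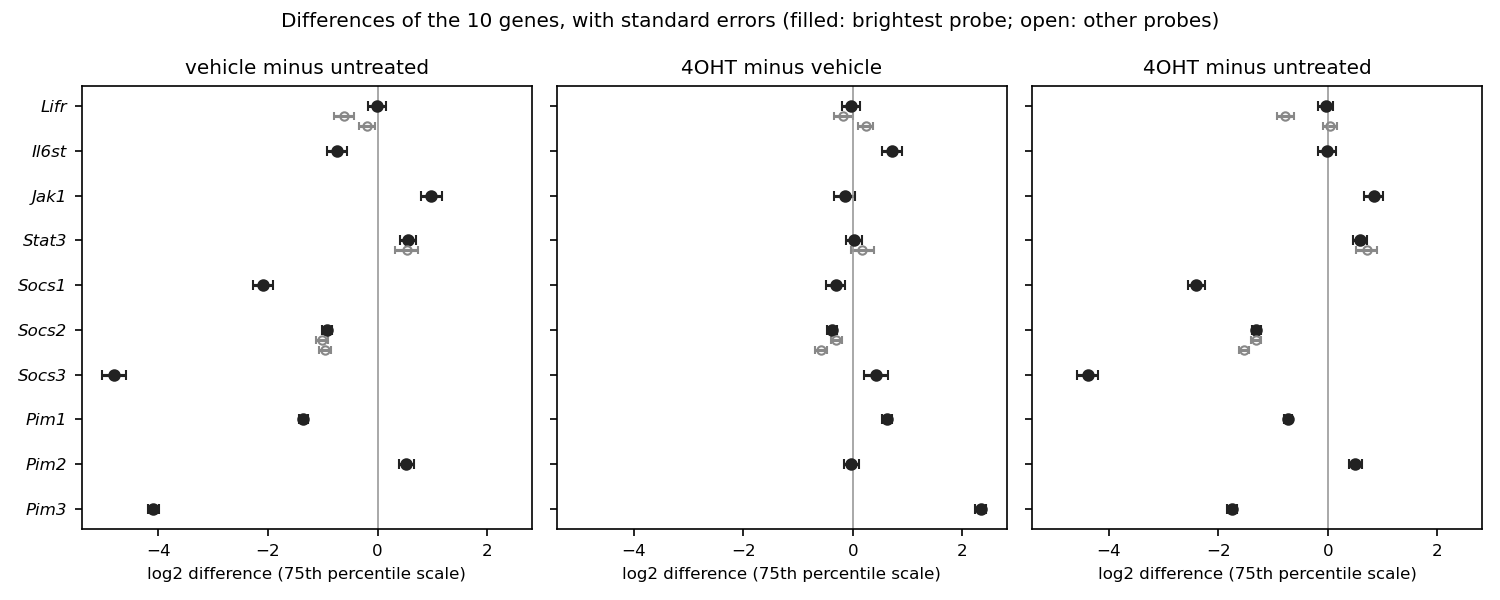
Log2 differences on the 75th percentile scale (horizontal axis) with standard errors, for vehicle minus untreated, 4OHT minus vehicle and 4OHT minus untreated. Filled points are each gene's brightest probe and open points its other probes. Pim3 lies at 2.34 in the middle panel, where Pim1 and Il6st lie at 0.63 and 0.71 and Socs2 at -0.38.

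Counted over the 10 genes, vehicle against untreated gave 3 calls higher (Jak1, Stat3 and Pim2), 6 lower (Il6st, Socs1, Socs2, Socs3, Pim1 and Pim3) and none for Lifr. Calls are limma adjusted p-values under 0.05 in a fit over all features. In that comparison 41.5% of all features were called higher and 15.9% lower, and nothing is read from the members' counts, since their response led to their choice. The members' median difference was -0.83 and that of all features 0.40. For 4OHT against vehicle 2 members were called higher (Pim1 and Pim3) and 0 lower, where 0.920% of features were called higher and 2.58% lower. The arrays of Il6st, Pim1 and Pim3 lay higher with no overlap and those of Socs2 lower. The share of all features that separated in this way was not counted, so nothing is read from it. The members' median was 0.00 against -0.05 for all features. For 4OHT against untreated 3 members were called higher (Jak1, Stat3 and Pim2) and 5 lower (Socs1, Socs2, Socs3, Pim1 and Pim3), where 41.0% of features were called higher and 18.7% lower. These 3 comparisons share arrays and are not independent of each other.

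On the spike-in scale 9 members were called lower with vehicle than in untreated cells and 10 lower with 4OHT, where 64.9% and 93.4% of all features were called lower. Jak1 was the member not called with vehicle. Between 4OHT and vehicle 0 members were called lower, against 4.10% of all features, and Pim3 was called higher, against 0.140%. The median of all features between 4OHT and vehicle shifted from -0.05 to -0.36 with this scaling. Within a comparison this scaling moves every difference by 1 amount, so a gene's place relative to the median of all features is the same on both scales. With vehicle Socs3, Pim3, Socs1, Pim1, Socs2, Il6st and Lifr lay below that median and Jak1, Stat3 and Pim2 above it. The share of called features that were higher with vehicle than in untreated cells was 72.3% on the 75th percentile scale, 84.9% with normexp background correction, 60.2% with quantile normalization and 0.173% on the spike-in scale. Between 4OHT and vehicle it was 26.3% on the 75th percentile scale, 36.3% with normexp and 3.31% on the spike-in scale.

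**Figure D3:**
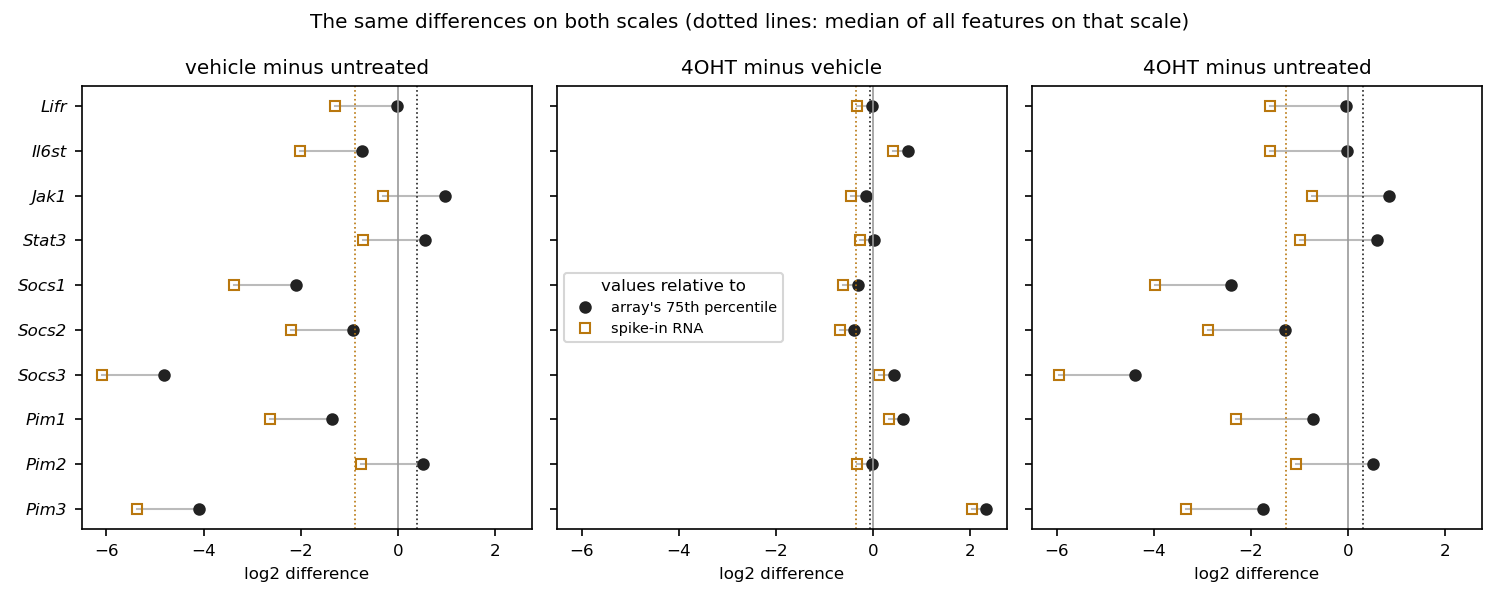
Log2 differences of the 10 genes (horizontal axis) relative to each array's 75th percentile (filled circles) and to spike-in RNA (open squares), in the 3 comparisons, with dotted lines at the median of all features on each scale. Jak1, Stat3 and Pim2 pass from above 0 to below 0 against untreated, and Pim3 stays above 0 between 4OHT and vehicle (2.34 and 2.03).

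The symbols whose values over the 8 arrays were most like those of Pim3 and Socs3 were found among 13185 others that were well above background throughout. Likeness is the root mean square of the differences between 2 genes' log2 values, each taken from its untreated mean. The neighbours were picked for likeness on these same arrays, so their place in each group follows from that choice. The likest to Pim3 were Fgf4 (0.40), Lrp12 (0.54), Clk1 (0.57), Lrig1 (0.63) and Tmem104 (0.64). Fgf4, the FGF ligand that embryonic stem cells secrete, differed from its untreated mean by -3.63 with vehicle and -2.27 with 4OHT, so it too sat higher with 4OHT, though by less than Pim3. Fgf4 was called between 4OHT and vehicle, and Lrp12, Clk1, Lrig1 and Tmem104 were not. The likest to Socs3 were Dusp6 (0.20), Trib1 (0.27), Zfp105 (0.32), Bag5 (0.32) and Nodal (0.34). Dusp6, a phosphatase that inactivates Erk, stood at -4.85 with vehicle and -4.21 with 4OHT. Among the members the one nearest to Pim3 was Socs1 (1.09), at position 279 of the order, and the one nearest to Socs3 was Pim3 (1.66).

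**Figure D4:**
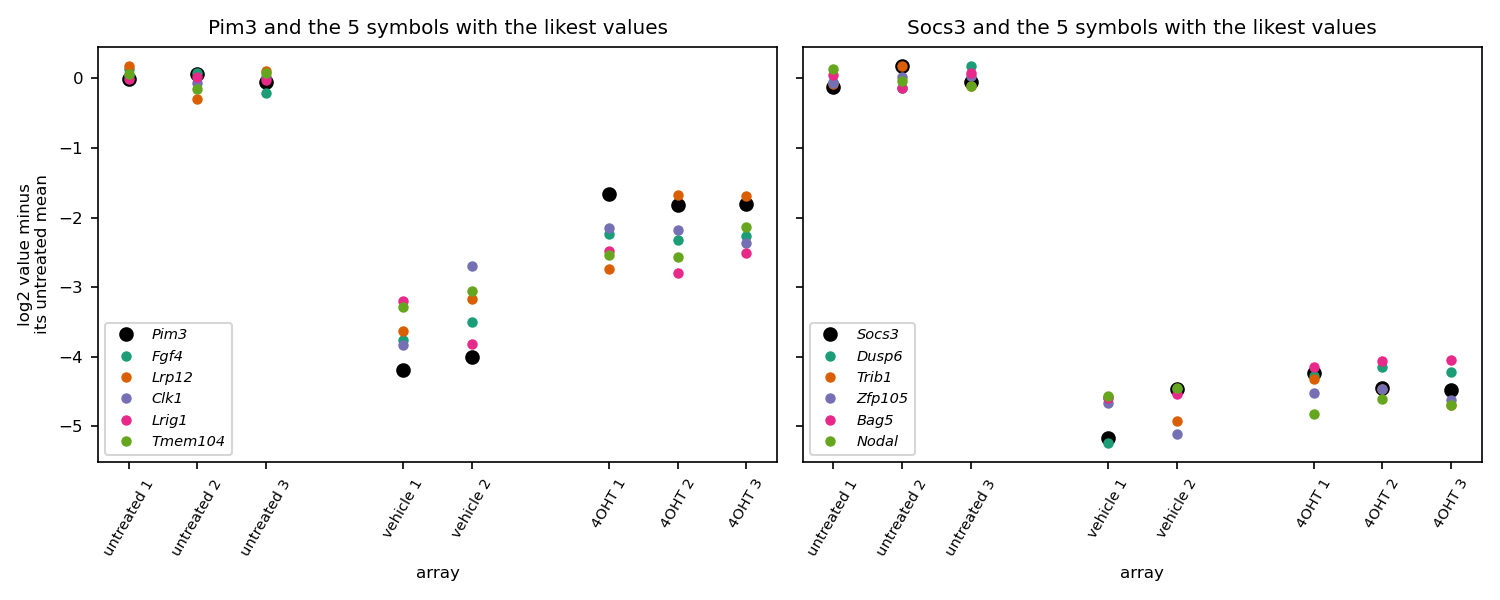
Log2 values minus the untreated mean (vertical axis) on each of the 8 arrays for Pim3 and Socs3 (black) and the 5 symbols nearest to each. Pim3 and its neighbours lie higher with 4OHT than with vehicle (Fgf4 at -2.27 and -3.63), and Dusp6 is near Socs3 in both treated groups (-4.85 and -4.21). The neighbours were picked for this likeness on the same arrays.

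The rest of the pathway was read from 9 lists of 65 genes, of which 60 were tested. With vehicle 17 of the 60 rose and 21 fell against untreated, with 4OHT 13 rose and 23 fell against untreated, and between 4OHT and vehicle 1 rose and 3 fell. Over all features the shares called higher and lower were 41.5% and 15.9%, 41.0% and 18.7%, and 0.920% and 2.58%. The lists were chosen with earlier results of these arrays known, so the counts below are descriptions to be set beside these shares. Their median difference for vehicle was -0.05, against 0.40 for all features. None of the cytokines or receptor partners tested was called for vehicle against untreated or for 4OHT against vehicle. Those were 4 of 7 cytokines, with Lif, Il6 and Osm too dim to test, and 4 of 5 receptor partners of gp130. For 4OHT against untreated Il11 (-1.11 ± 0.32) and Il11ra1 (-0.49 ± 0.17) were called lower and Cntf (0.37 ± 0.09) higher. Il11 was well above background on 1 4OHT array, and Cntf gave -0.03 on its other probe and -1.21 on the spike-in scale. Among other JAK kinases 2 of 3 rose with vehicle, Jak3 by 1.12 ± 0.29 (limma adjusted p = 0.013) and Tyk2 by 0.71 ± 0.10 (limma adjusted p = 0.0011), and on the spike-in scale both differences were below 0 (-0.16 and -0.56). The Jak3 call was lost without vehicle replicate 2 (0.77) and with the mean of its probes (1.01). Of the other STAT factors 1 of 5 rose, Stat5b by 0.56 ± 0.17 (limma adjusted p = 0.028), with -0.71 on the spike-in scale, and the call was lost without vehicle replicate 2 (0.38), untreated replicate 1 (0.51) or untreated replicate 2 (0.52), and with median scaling (0.60), no filter (0.56) or the mean of its probes (0.49).

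Of 5 other genes with a SOCS box 4 fell with vehicle and 0 rose, where 15.9% of all features fell and 41.5% rose. Cish, a target of STAT5 that damps cytokine receptors, differed by -3.16 ± 0.21 (limma adjusted p = 8.0e-05) and Socs6 by -0.89 ± 0.15 (limma adjusted p = 0.0021). A second, dimmer Socs6 probe gave a smaller difference of -0.37. Socs5 was not well above background on either vehicle array and was at least 3.81-fold lower. It is among the 4 but passed the filter through the untreated arrays alone, so its p-value is not read. Its direction flipped with normexp background correction, where the difference was 0.05. Between 4OHT and vehicle 0 of the 5 were called, and Cish differed by 0.09 ± 0.21. Of 8 PIAS proteins and phosphatases 5 rose with vehicle and 1 fell, set against those same shares. Pias1 fell by 0.91 ± 0.11 (limma adjusted p = 0.00051). Pias2 rose by 0.85 ± 0.09 (limma adjusted p = 0.00034) and Ptpn11, the phosphatase that links gp130 to the RAS pathway, by 0.67 ± 0.09 (limma adjusted p = 0.00082), and both were below 0 on the spike-in scale (-0.42 and -0.60). The Ptpn11 call was lost with quantile normalization (0.18) and median scaling (0.71). Of 5 adaptors that lead to RAS 3 rose and 1 fell, with Shc1 at 0.70 ± 0.11 (limma adjusted p = 0.0018; -0.58 on the spike-in scale) and Sos2 at -1.23 ± 0.12 (limma adjusted p = 0.00033). The Shc1 call was lost with median scaling (0.74), and with normexp the Sos2 difference was -0.09 and no longer called. Between 4OHT and vehicle 0 genes of these lists were called, where 0.920% of all features rose and 2.58% fell.

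Of 16 genes listed as Stat3 targets 12 fell with vehicle and 2 rose, where 15.9% of all features fell and 41.5% rose. Myc, the growth regulator, differed by -4.71 ± 0.13 (limma adjusted p = 3.5e-06), Gbx2, a homeobox factor that promotes self-renewal, by -4.38 ± 0.24 (limma adjusted p = 3.5e-05), and Klf4, a core pluripotency factor, by -3.61 ± 0.12 (limma adjusted p = 6.8e-06). Zfp36, which encodes an mRNA-destabilising protein, was not well above background on either vehicle array and was at least 3.53-fold lower. With normexp its difference was -0.01 and not called. Zfp36 and Junb are among the 12 but passed the filter through the untreated arrays alone, so their p-values are not read. The risers were Nr0b1 (0.41 ± 0.13) and Sall4 (0.34 ± 0.09), with limma adjusted p of 0.032 and 0.016. Both were below 0 on the spike-in scale (-0.86 and -0.93) and with quantile normalization (-0.22 and -0.20), and Sall4 also with normexp (-0.01). Neither call held without vehicle replicate 1 (0.30 and 0.33), and that of Sall4 did not hold without vehicle replicate 2 (0.35). That of Nr0b1 was also lost without untreated replicate 2 (0.41), untreated replicate 3 (0.35) or 4OHT replicate 2 (0.41).

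Between 4OHT and vehicle 2 of the 16 Stat3 targets fell and 0 rose, where 2.58% of all features fell and 0.920% rose. With so small a share called higher nothing is read from the 0. Cebpb, a leucine zipper factor, differed by -1.35 ± 0.15 (limma adjusted p = 0.010), and Klf5, a pluripotency factor, by -0.70 ± 0.11 (limma adjusted p = 0.027). The Cebpb call was kept in 17 of 20 alternatives (adjusted p from 0.003 to 0.078) and lost without vehicle replicate 1 (-1.25) and with no filter (-1.35), among others. The Klf5 call was kept in 10 of 20 (adjusted p from 0.005 to 0.5) and lost without untreated replicate 3, either vehicle array, or 4OHT replicate 2 or 3 (-0.64 to -0.76), and it was also lost with quantile normalization (-0.65) or median scaling (-0.59). Myc differed by -0.19 and Klf4 by -0.53 ± 0.12 (limma adjusted p = 0.072).

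Of 10 genes that encode substrates of PIM kinases 4 rose and 3 fell with vehicle against untreated, where 41.5% of all features rose and 15.9% fell. Cdkn1a, the cell cycle inhibitor p21, differed by -2.82 ± 0.11 (limma adjusted p = 1.1e-05), Foxo1, a forkhead factor, by -1.77 ± 0.13 (limma adjusted p = 0.00013), and Cdkn1b, the inhibitor p27, by -0.99 ± 0.14 (limma adjusted p = 0.0011). A second, dimmer Foxo1 probe gave a larger difference of -3.07. Eif4b, a translation initiation factor, rose by 0.80 ± 0.11 (limma adjusted p = 0.00092), with -0.48 on the spike-in scale, and its call was lost with quantile normalization (0.26). With 4OHT against vehicle 1 of the 10 rose and 1 fell, where 0.920% of all features rose and 2.58% fell. Cdkn1a rose by 0.57 ± 0.11 (limma adjusted p = 0.044) and Foxo1 differed by -1.0 ± 0.13 (limma adjusted p = 0.016), with -0.84 on its second probe. The Cdkn1a call was kept in 6 of 20 alternatives (adjusted p from 0.026 to 0.46) and was lost whichever array was left out (0.48 to 0.66). The Foxo1 call was kept in 13 of 20 (adjusted p from 0.0032 to 0.24) and was lost without untreated replicate 3 (-1.0) or without either vehicle array (-0.94 and -1.07), and with median scaling (-0.89).

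**Figure D5:**
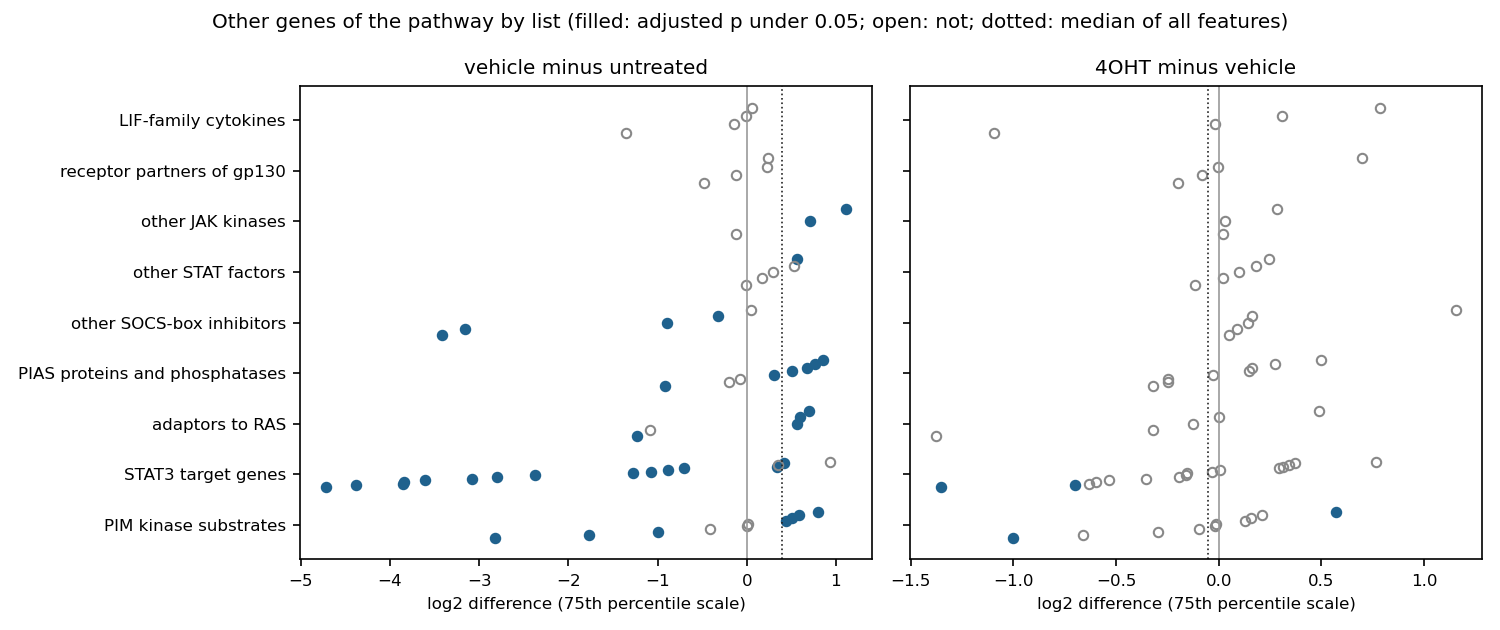
Log2 differences on the 75th percentile scale (horizontal axis) of the 60 tested genes of the 9 pathway lists, for vehicle minus untreated and 4OHT minus vehicle. Each point is 1 gene, filled where the limma adjusted p was under 0.05, and the dotted line is the median of all features. With vehicle 12 of 16 Stat3 targets were called lower, where 15.9% of all features were. The 12 include Junb and Zfp36, which were not well above background on either vehicle array. Between 4OHT and vehicle 4 of the 60 genes are filled, 1 higher and 3 lower, where 0.920% and 2.58% of all features were called.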

How the data were processed

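RNA was labelled with a low-input Agilent kit and hybridised to 1-colour arrays, per the labels' protocols, which name the dye Cy5, while the files hold the green channel. Agilent Feature Extraction 11.0.1.1 made the deposited intensity, a linear processed signal with background subtracted, per the file headers, and the deposited value table equals it within a relative difference of 0.00497, with no centring between arrays (column medians from 13.3 to 50.8). Marks per spot, which flag outliers, saturation and signal well above background, were used as deposited.

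Log2 signal minus the array's 75th percentile over 59305 non-control spots was computed, and spots of 1 probe were averaged. Left out were control spots and 466 probes with outlier marks, and 0 spots were saturated. The 33008 probes kept were those with, for at least 1 group, signal well above background throughout that group. Accessions were matched to a GRCm38.p6 gene table for names only (27656 of 55681 probes), since the headers name mm9, and a symbol was read from its brightest probe. Tests used limma 3.58.1 under R 4.3.3 (lmFit and eBayes, 1 fit of 3 groups, 5 residual degrees of freedom), two-sided, with Benjamini-Hochberg adjustment over 28491 features, and called under 0.05. The number of arrays limits the precision (median standard error 0.17, and 0.15 for 4OHT against untreated). The fit was tested on simulated data.

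A fold given as "at least" belongs to a probe that was not well above background anywhere in the dimmer group. There each dim array counts with its lowest well-detected signal or with the probe's own signal, whichever is higher. The spike-in scale subtracts the mean of 8 of 10 Agilent spike-in probes. The labelling started from a fixed mass of total RNA, and the labels do not describe when spike-in RNA was added.

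The members, the pathway and marker lists and the naming rule were chosen with earlier results of these data known. The text names all members, and from each pathway list and comparison up to 3 called genes with the largest rise and 3 with the largest fall, whose arrays do not overlap and which are bright throughout the brighter group, though not every gene the rule allows. Klf4 (vehicle against untreated) and the uncalled pathway genes between 4OHT and vehicle were named after their values were seen. The alternatives were 4 other scalings or corrections, the deposited table, filters, probe rules, trended and robust eBayes, a replicate block, each array left out, and the 2 groups alone. Samples with the same replicate number did not deviate together in every pair (correlations from -0.19 to 0.36), so the numbers were not used to pair them.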

Additional observations from a re-analysis of the deposited data

How the results depend on the processing

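Pim3 and Socs3 kept their direction and their calls against untreated under all 20 alternatives, and Pim3 also between 4OHT and vehicle (2.03 to 2.45). The alternatives reuse the arrays from which the members were chosen. They describe dependence on the processing and give no support to the members' differences. For 4OHT against vehicle 996 features were called, and 241 with median scaling, 111 with no filter, 20 with a replicate block, 233 with only the 2 groups compared, and between 235 and 738 with 1 array left out. The block kept the Pim3 call (2.36) and lost those of Pim1 (0.64), Cebpb (-1.29), Klf5 (-0.69), Foxo1 (-1.01) and Cdkn1a (0.57). Same-numbered vehicle and 4OHT arrays correlated at 0.36 and 0.22 in their deviations, and no label states that the numbers pair them. For vehicle against untreated 16371 features were called (13456 to 16408 with 1 array left out, 15056 with a replicate block), and for 4OHT against untreated 17032 (15253 to 17164 with 1 array left out, 16464 with a replicate block, 26628 on the spike-in scale). The spike-in scale turned these differences for vehicle and for 4OHT against untreated below 0: Jak1 (-0.30 and -0.75), Stat3 (-0.72 and -0.99), Pim2 (-0.75 and -1.08), Jak3 (-0.16 and -0.18), Tyk2 (-0.56 and -0.84), Stat5b (-0.71 and -0.77), Pias2 (-0.42 and -0.76), Ptpn11 (-0.60 and -0.74), Shc1 (-0.58 and -0.88) and Eif4b (-0.48 and -0.80). It did so for vehicle in Sall4 (-0.93) and Nr0b1 (-0.86), which quantile normalization also turned (-0.20 and -0.22). Normexp turned Sall4 with vehicle (-0.011), Socs5 with vehicle and with 4OHT (0.048 and 0.13) and Sos2 with 4OHT (0.040). Socs5 and Zfp36 had no value with the filter on all 8 arrays, nor between 4OHT and vehicle with only those groups. The cause was not tested, beyond that within a comparison the spike-in scale moves every difference by the same amount. A slide block could not be fitted for 4OHT, whose arrays fill 1 slide. Socs5 and Zfp36 were not well above background after actinomycin D, which limits their differences to bounds.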
